A study of Mus musculus with 12 samples.

Results

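Plekhg1, Tns1, Plcb4 and Tspan6 were followed across 12 mouse brain tumours in 4 groups. They are 4 of the 24054 rows in the deposited expression table, and all 4 passed the filter on low values, a CPM (read counts scaled to a common library size) of at least 1 in at least 3 libraries. They were selected on these measured levels, because the 3 tumours from old mice given nicotinamide mononucleotide (NMN) did not overlap with the 3 tumours from untreated old mice. That difference is therefore the reason for their choice and is described below without a test. Plekhg1, Tns1 and Plcb4 were higher in the NMN tumours, and Tspan6 was lower.

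Plekhg1 encodes a guanine nucleotide exchange factor of the Dbl family, which loads small GTPases with GTP and so acts on the actin cytoskeleton. Tns1 encodes tensin 1, an adaptor that ties integrins in focal and fibrillar adhesions to actin filaments. Plcb4 encodes phospholipase C beta 4, which acts behind Gq-coupled receptors and splits a membrane phosphoinositide into inositol trisphosphate, which releases calcium, and diacylglycerol, which activates protein kinase C. In the brain it is best known from Purkinje cells and thalamic neurons. Tspan6 encodes a tetraspanin, a multi-pass membrane protein that organises other membrane proteins and takes part in endosomal sorting, and its gene lies on the X chromosome.

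The tumours came from mouse tumour cells that had been placed in the striatum (female C57BL/6 mice), and they were collected once the animals had symptoms. The labels name the cell line ms7080, the protocol text speaks of BC cells, and neither gives its genotype or sex. The young group was 2 months old and untreated, and the old group was 16 months old and untreated. The other 2 groups were old mice given NMN, a precursor of the coenzyme NAD, at 300 mg per kg per day, and old mice joined by parabiosis, a surgical union of 2 animals that share a circulation. How old the joined partners were is not stated in the labels. Each group had 3 mice and 1 library per mouse, all tumours came from 1 line, and young and old mice came from different suppliers, so age and supplier cannot be told apart.

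The recovered depth was 18566096 to 26779406 reads per library, and 3 reads corresponded to 0.100 to 0.143 CPM. The 4 genes were far above that limit, with 339 to 1246 reads per library for Plekhg1, 949 to 2871 for Tns1, 432 to 1083 for Plcb4 and 1179 to 3215 for Tspan6. Xist, the RNA of the inactive X chromosome, was near 0 in 3 libraries, at 1.88 and 2.76 CPM in old replicates 1 and 2 and at 5.33 CPM in young replicate 3. In the 9 other libraries it lay between 164 and 1127 CPM. The low libraries thus fell in the untreated old and young groups and in neither the NMN nor the parabiosis group. Low Xist and group are therefore partly confounded in NMN against old, and the reason for the low values was not tested. All mice are labelled female, and 4 Y-linked genes (Ddx3y, Kdm5d, Eif2s3y and Uty) summed to 91.0 to 387 CPM in every library. The comparisons that use the 3 libraries low in Xist were also run without them.

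The 4 genes sit on 4 chromosomes in the GRCm38 build with GENCODE M21 annotation. Plekhg1 (ENSMUSG00000040624.17) spans chromosome 10 from 3740364 to 3967303 on the plus strand. Tns1 (ENSMUSG00000055322.15) spans chromosome 1 from 73910231 to 74124449 on the minus strand. Plcb4 (ENSMUSG00000039943.16) spans chromosome 2 from 135659011 to 136014593 on the plus strand. Tspan6 (ENSMUSG00000067377.12) spans chromosome X from 133891068 to 133898429 on the minus strand and is the shortest of the 4.

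Because 3 of the genes were high together in the NMN tumours and 1 was low, the 250 bases before a RefSeq start of each are shown (GRCm38.p6, 5′ to 3′ on the gene's strand). All 4 genes had a window in the RefSeq table, and Plcb4 had a pair. Capitals mark matches to the motifs searched. The Plekhg1 window is chr10:3872417-3872666, plus strand, and the first Plcb4 window is chr2:135659297-135659546, plus strand, both inside the annotated gene. The Tns1 window is chr1:74124549-74124798, minus strand. The Tspan6 window is chrX:133898430-133898679, minus strand.
Plekhg1: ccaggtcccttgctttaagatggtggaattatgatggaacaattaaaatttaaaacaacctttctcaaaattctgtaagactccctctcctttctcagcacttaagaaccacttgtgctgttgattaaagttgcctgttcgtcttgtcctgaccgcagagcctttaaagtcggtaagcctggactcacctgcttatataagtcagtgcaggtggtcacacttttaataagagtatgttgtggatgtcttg
Tns1: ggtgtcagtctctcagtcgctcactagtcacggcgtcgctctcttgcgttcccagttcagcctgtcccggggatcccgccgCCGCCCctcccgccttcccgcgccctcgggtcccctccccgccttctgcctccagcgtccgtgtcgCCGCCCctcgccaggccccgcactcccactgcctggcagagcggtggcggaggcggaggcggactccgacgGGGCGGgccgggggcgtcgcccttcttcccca
Plcb4: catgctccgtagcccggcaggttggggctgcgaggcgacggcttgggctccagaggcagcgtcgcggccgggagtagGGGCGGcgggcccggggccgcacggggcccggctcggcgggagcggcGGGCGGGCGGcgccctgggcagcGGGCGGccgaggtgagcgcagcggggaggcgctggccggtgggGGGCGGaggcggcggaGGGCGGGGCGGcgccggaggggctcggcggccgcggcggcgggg
Tspan6: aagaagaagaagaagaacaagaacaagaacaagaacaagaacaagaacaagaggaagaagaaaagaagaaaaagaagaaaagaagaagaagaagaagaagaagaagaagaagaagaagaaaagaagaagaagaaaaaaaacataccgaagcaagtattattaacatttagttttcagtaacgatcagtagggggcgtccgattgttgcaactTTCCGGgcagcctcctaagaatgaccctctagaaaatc

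The windows of the 3 genes that were high with NMN differed in base composition. Tns1 and the first Plcb4 window were rich in G and C, at 74.4% and 85.2%, with 30 and 42 CpG pairs. The Plekhg1 window had 41.2% G and C and 3 CpG pairs, and the Tspan6 window had 36% and 5, against a median of 52.4% and 6 over the 32851 RefSeq windows. A second Plcb4 window further into the gene, chr2:135764588-135764837, had 42.8% and 3.

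A set of 7 short motifs was searched on both strands. The GC box GGGCGG occurred 3 times in the Tns1 window and 7 times in the first Plcb4 window, overlaps counted, and it is present in 32.7% of all windows. The ETS core CCGGAA occurred once in the Tspan6 window, 38 bases before the start and in the reverse direction, and is present in 12.0% of windows. TATAAA (12.4% of windows), CCAAT (33.8%), CACGTG (6.02%), TGACTCA (4.46%) and TGACGTCA (1.55%) had no match in any of the 5 windows. No motif was found in the Plekhg1 window or in the second Plcb4 window.

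Plekhg1, the exchange factor, was lowest in untreated old tumours and highest in NMN tumours. Its level was 15.9, 19.3 and 20.1 CPM in the 3 untreated old tumours and 39.8, 48.5 and 40.8 CPM in the 3 NMN tumours. Parabiosis tumours had 22.6, 28.4 and 27.7 CPM, and young tumours had 31.0, 27.7 and 37.9 CPM. Every old library was below every library of the other groups, and every NMN library was above them. The group means were 18.4 ± 2.22 in old, 26.2 ± 3.16 in parabiosis, 32.2 ± 5.20 in young and 43.0 ± 4.74 in NMN tumours (CPM, SD, n = 3). Parabiosis and young, neighbours in that order, overlapped.

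Tns1, the adhesion adaptor, overlapped among 3 groups and was higher in the NMN tumours. Untreated old tumours had 58.4, 54.4 and 42.5 CPM, young tumours 46.7, 45.2 and 52.5 CPM, and parabiosis tumours 45.8, 46.4 and 55.6 CPM. The NMN tumours had 79.7, 111.7 and 88.9 CPM. The 9 libraries outside the NMN group shared the range from 42.5 to 58.4 CPM and all 3 of those groups overlapped one another. Means were 48.1 ± 3.87 in young, 49.2 ± 5.50 in parabiosis, 51.8 ± 8.31 in old and 93.4 ± 16.5 in NMN tumours (CPM, SD, n = 3). The NMN group had the widest spread, with replicate 2 the highest library.

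Plcb4, the Gq effector, likewise had only the NMN tumours apart from the 3 other groups. Untreated old tumours had 24.6, 25.0 and 26.5 CPM and NMN tumours had 44.7, 41.3 and 42.0 CPM. Young tumours had 22.4, 20.6 and 31.2 CPM, and parabiosis tumours had 28.4, 24.7 and 29.1 CPM. Young replicate 3 stood above the 2 other young libraries, and young, old and parabiosis tumours overlapped. Means were 24.7 ± 5.71 in young, 25.4 ± 1.01 in old, 27.4 ± 2.35 in parabiosis and 42.7 ± 1.78 in NMN tumours (CPM, SD, n = 3).

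Tspan6, the tetraspanin, ran the other way. NMN tumours had 48.7, 51.6 and 50.5 CPM, and untreated old tumours had 110.2, 86.8 and 68.8 CPM. Young tumours had 91.6, 89.4 and 88.9 CPM, and parabiosis tumours had 109.1, 107.3 and 104.0 CPM. The untreated old libraries spread over the whole range of the young and parabiosis libraries, whereas the 3 other groups were narrow. Means were 50.3 ± 1.49 in NMN, 88.6 ± 20.8 in old, 90.0 ± 1.45 in young and 106.8 ± 2.57 in parabiosis tumours (CPM, SD, n = 3). Old and young overlapped, and young and parabiosis did not.

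**Figure D1:**
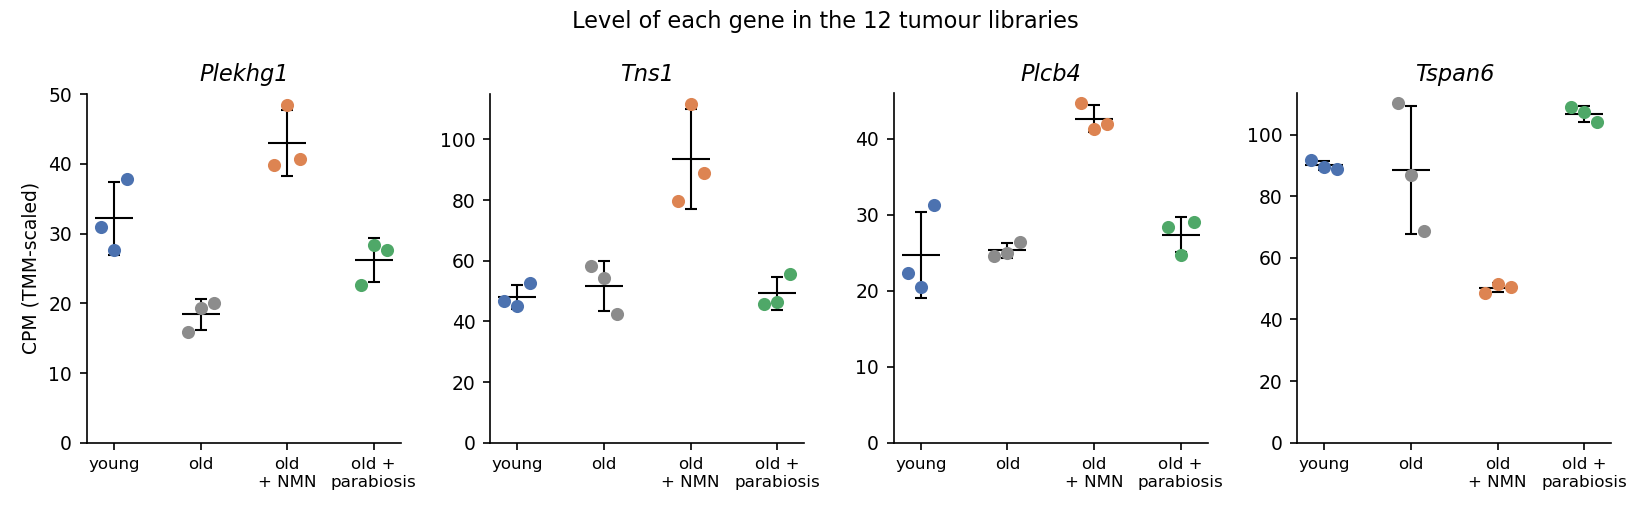
Level of each gene in CPM (linear axes) in every library, by group, with the group mean and SD (n = 3 libraries per group). The NMN libraries sit above the 9 others for Plekhg1, Tns1 and Plcb4 and below them for Tspan6, and the untreated old libraries of Tspan6 spread from 68.8 to 110.2 CPM.

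Scaled to exon length (GENCODE M21, exons of all transcripts joined), Tspan6 was the most abundant of the 4. It stood at 43.0 CPM per kb in old and 24.4 CPM per kb in NMN tumours, against 2.11 and 4.92 for Plekhg1, 3.23 and 5.84 for Tns1, and 2.83 and 4.76 for Plcb4. The order of Plekhg1, Tns1 and Plcb4 among themselves thus depended on the group, with Plekhg1 lowest of the 3 in untreated old tumours.

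The difference that chose the genes is given first. On the log2(CPM + 1) scale, NMN minus old was 1.18 ± 0.15 for Plekhg1, 0.84 ± 0.16 for Tns1, 0.73 ± 0.14 for Plcb4 and -0.78 ± 0.14 for Tspan6 (SE from limma over 12 libraries). The ratio of mean CPM was 2.33 for Plekhg1, 1.80 for Tns1, 1.68 for Plcb4 and 0.567 for Tspan6. Of the 15232 genes kept, 12.6% had all 3 NMN libraries above all 3 old ones and 6.92% had them all below. Among X-linked genes, which include Tspan6, 12.4% had them all below. The median difference over all genes was 0.01. Limma called 0 of these genes at an adjusted p under 0.05 (Benjamini-Hochberg), with 1573 at an unadjusted p under 0.05, edgeR called 0, and DESeq2 called 46. With the replicate number as a block in a fit of these 6 libraries alone, added after seeing the data, limma called 474.

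In the ranking of NMN against old by unadjusted p, Plekhg1 was 1st, Tspan6 3rd, Tns1 6th and Plcb4 8th. These places rest on the same difference that chose the genes, so they describe the choice and are no test of it. Neighbours in the ranking that were not chosen are given as values. Plekhg2, an exchange factor related to Plekhg1, was 7th at -0.49. Kcnip1, a subunit that modulates Kv4 potassium channels, was 9th at 1.70 (8.61 against 1.95 CPM), and Chdh, choline dehydrogenase, was 10th at 1.01 (5.79 against 2.38 CPM).

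**Figure D2:**
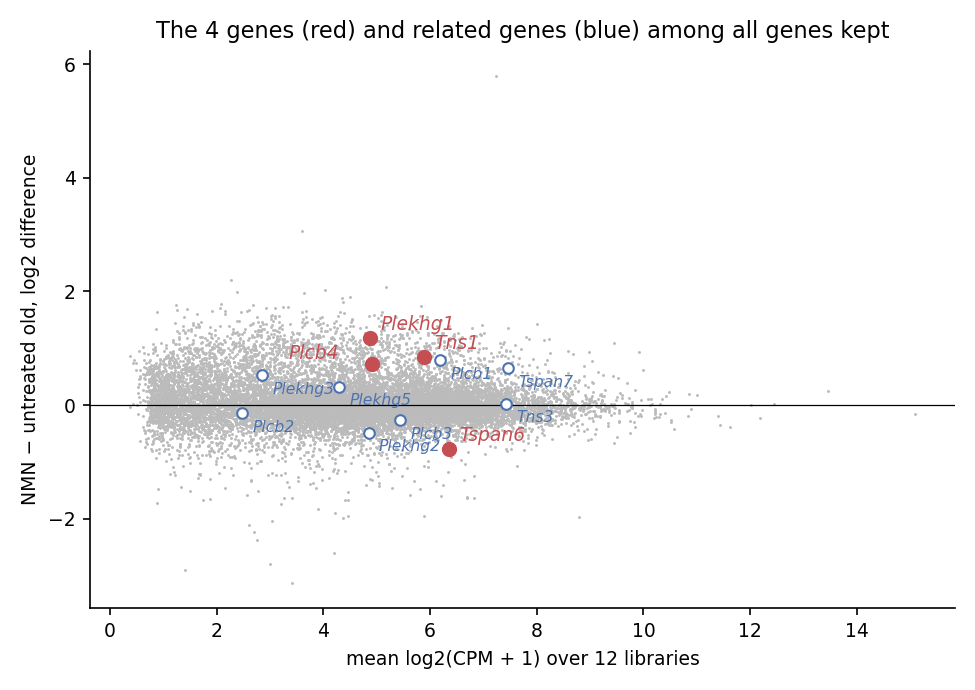
Mean log2(CPM + 1) over 12 libraries (x) against the NMN minus untreated old log2 difference (y) for the 15232 genes kept, in grey. The 4 genes are red and their nearest relatives blue, and the 4 lie between -0.78 and 1.18 among many grey genes with larger differences.

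Against all 9 other libraries, the 3 NMN libraries were highest for Plekhg1, Tns1 and Plcb4 and lowest for Tspan6. This pattern was seen in 1.33% of genes for the NMN libraries on top and 1.46% for the NMN libraries at the bottom. The old libraries enter here too, so part of the pattern was fixed by the choice.

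Old against young separated Plekhg1 from the other 3 genes. Plekhg1 was lower in untreated old than in young tumours in every library, by -0.77 ± 0.15 (log2, SE), a pattern in 6.6% of all genes. Tns1 differed by 0.09 ± 0.16, Plcb4 by 0.06 ± 0.14 and Tspan6 by -0.05 ± 0.14, all with overlapping libraries. The old libraries were used in the choice of the genes, so no p is given.

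Parabiosis against old gave 0.49 ± 0.15 for Plekhg1, with no overlap of libraries (6.99% of all genes), -0.06 ± 0.16 for Tns1, 0.11 ± 0.14 for Plcb4 and 0.29 ± 0.14 for Tspan6. The latter 3 genes overlapped between the groups. The same 3 untreated old libraries serve both the parabiosis and the NMN difference, which therefore share that error. Set side by side, Plekhg1 was 0.49 with parabiosis and 1.18 with NMN, while Tspan6 was 0.29 with parabiosis and -0.78 with NMN.

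NMN against young was 0.41 ± 0.15 for Plekhg1, 0.93 ± 0.16 for Tns1, 0.79 ± 0.14 for Plcb4 and -0.83 ± 0.14 for Tspan6. None of the 4 genes overlapped, where 18.5% of all genes were higher and 10.7% lower without overlap. NMN against parabiosis was 0.69 ± 0.15, 0.90 ± 0.16, 0.62 ± 0.14 and -1.07 ± 0.14 in the same order, again with no overlap, where 6.97% of all genes were higher and 7.83% lower. Among X-linked genes, which include Tspan6, 37.7% were lower without overlap in NMN against parabiosis and 14.0% in NMN against young. For Plekhg1 the closest NMN and young libraries were 1.94 CPM apart. The NMN libraries were used in the choice of the genes, so the choice favoured this separation and no p is given.

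Parabiosis against young is the pair of groups in which no library was used to choose the genes, and it was tested. The limma intervals and p take their spread from all 12 libraries, which include those used in the choice. Limma fitted to these 6 libraries alone, without a block, gave adjusted p = 0.443 for Plekhg1, 0.935 for Tns1, 0.713 for Plcb4 and 0.275 for Tspan6. Plekhg1 differed by -0.28 (log2, 95% interval -0.62 to 0.05, limma adjusted p = 0.353), and libraries overlapped. Tns1 differed by 0.03 (-0.31 to 0.37, limma adjusted p = 0.945) and Plcb4 by 0.16 (-0.16 to 0.48, limma adjusted p = 0.595), both with overlap. Tspan6 was higher in each parabiosis library than in each young library, a pattern in 13.7% of all genes, and differed by 0.24 (-0.06 to 0.55, limma adjusted p = 0.383). Among X-linked genes, which include Tspan6, 43.4% had this pattern, against 12.6% of autosomal genes. Leaving out 1 library at a time gave -0.38 to -0.16 for Plekhg1, with -0.16 without young replicate 3 and -0.18 without parabiosis replicate 1. For Plcb4 the range was 0.046 to 0.34, and young replicates 2, 1 and 3 left out in turn gave 0.046, 0.10 and 0.34, with limma adjusted p between 0.126 and 0.932. Exact two-sided permutation tests gave p = 0.2, 0.7, 0.4 and 0.1 in that order, where 0.1 is the smallest that 3 against 3 libraries allow. Limma called 0 of 15232 genes in this comparison, with 2763 at an unadjusted p under 0.05, edgeR called 0 and DESeq2 called 977. With the replicate number as a block in a fit of these 6 libraries alone, added after seeing the data, limma called 1363 genes, and none of the 4 was among them. Without young replicate 3, limma called 701 genes, and without parabiosis replicate 2 it called 1.

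**Figure D3:**
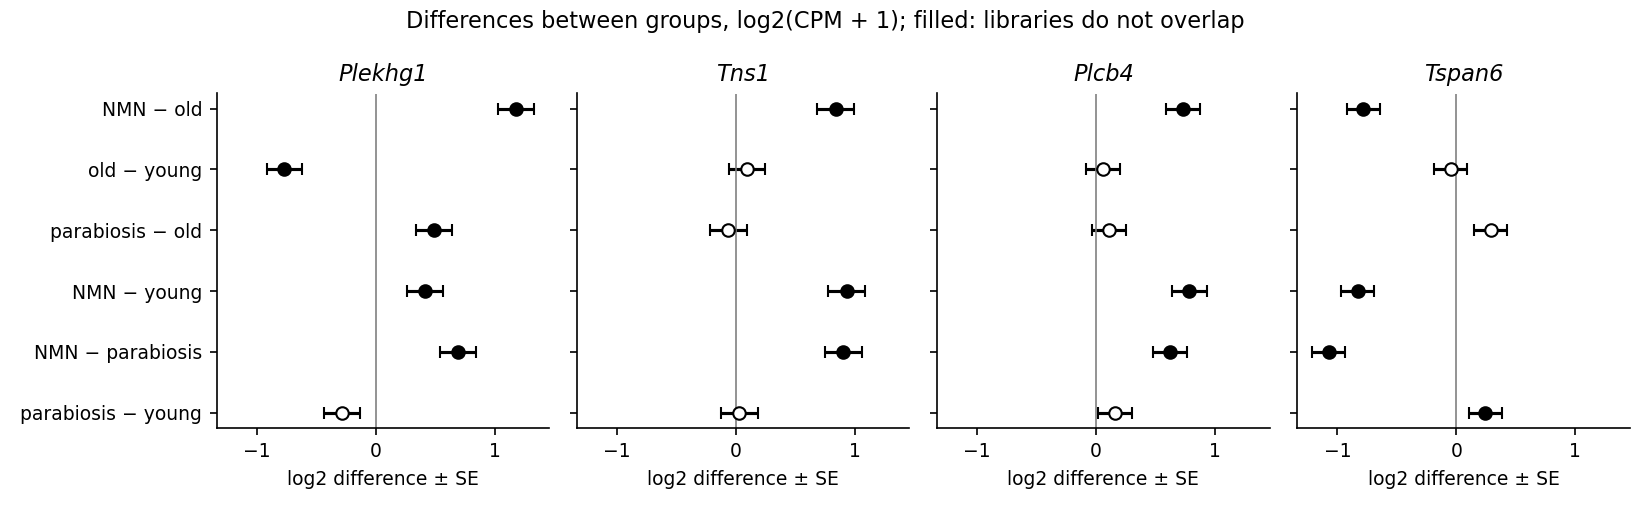
Log2 difference of each gene in the 6 pairwise comparisons of groups, with bars for the SE and filled circles where the libraries of both groups do not overlap. Plekhg1, Tns1 and Plcb4 lie above 0 and Tspan6 below 0 in the 3 comparisons with NMN, and the 5 comparisons that share libraries with the choice of the genes carry no test.

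In NMN minus old, the 3 libraries low in Xist changed the size of the differences and left their directions as they were. Leaving them out, which leaves 1 untreated old library whose spread is taken from the other groups, gave an NMN minus old difference of 1.06 for Plekhg1, 1.11 for Tns1, 0.67 for Plcb4 and -0.45 for Tspan6. The old library that remains is replicate 3, the lowest of the old group for Tspan6. Leaving out old replicate 1 alone brought the Tspan6 difference from -0.78 to -0.61. Parabiosis minus old for Tspan6 was 0.63 without the 3 libraries, 0.46 without old replicate 1 and 0.12 without old replicate 3, against 0.29 with all. For the other genes, parabiosis minus old without the 3 libraries was 0.36 for Plekhg1, 0.20 for Tns1 and 0.044 for Plcb4. Parabiosis minus young without young replicate 3 was -0.16 for Plekhg1, 0.09 for Tns1, 0.34 for Plcb4 and 0.24 for Tspan6.

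X-linked genes as a group were compared because Tspan6 is one of them. Of 549 X-linked genes kept, 485 (88.3%) were higher in parabiosis than in young tumours, with a median of 0.33, against a median of 0.00 over 14597 autosomal genes. Parabiosis minus old gave 0.31 and 0.01, and NMN minus parabiosis gave -0.25 and 0.03. The difference of 0.24 for Tspan6 between parabiosis and young was thus below the X-linked median. For NMN minus old the X-linked median was 0.01, and Tspan6 was the 17th lowest of the 549. That place rests on the difference that chose Tspan6, so it describes the choice and is no test. Without the 3 libraries low in Xist, the X-linked median was 0.30 for parabiosis minus young, 0.37 for parabiosis minus old and 0.08 for NMN minus old.

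**Figure D4:**
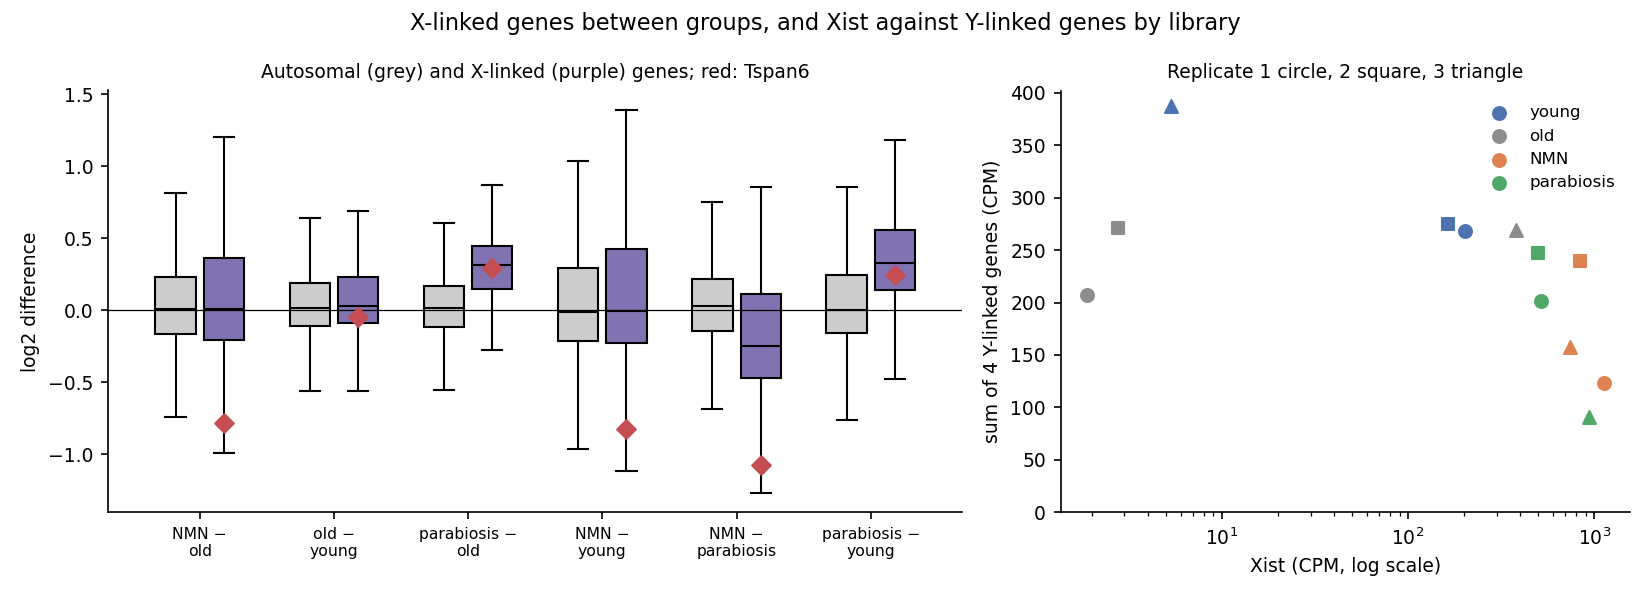
Left, log2 differences of 14597 autosomal (grey) and 549 X-linked genes (purple) in each comparison, as median, quartiles and whiskers to 1.5 interquartile ranges with outlying genes not drawn, and Tspan6 in red. Right, Xist in CPM (log axis) against the sum of 4 Y-linked genes in CPM for each of the 12 libraries, where old replicates 1 and 2 and young replicate 3 lie at 1.88 to 5.33 CPM of Xist.

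The families around the 4 genes differed in direction. Apart from the 4 genes themselves, limma called 0 genes of the 4 lists below in NMN against old. Counts of genes without overlap are to be read against the 12.6% higher and 6.92% lower among all genes. RSEM, the authors' counting tool, divides ambiguous reads among similar genes, and the values of close relatives carry that uncertainty.

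Among the PLEKHG family and other guanine nucleotide exchange factors, 15 of 23 genes kept were above 0 and 8 below in NMN minus old, with a median of 0.23. Of these, 5 were higher and 2 lower without overlap. Kalrn, which activates Rac in dendritic spines, stood at 268 ± 160 CPM in NMN and 124 ± 34.1 CPM in old tumours, a difference of 0.98. Arhgef17 was at 0.69 (90.0 ± 21.6 against 54.3 ± 4.65 CPM), and Arhgef4, which acts on Rac and Cdc42, was at 0.63. Within the PLEKHG family, Plekhg2 ran against Plekhg1, with 23.1, 23.7 and 23.1 CPM in NMN tumours and 32.0, 33.1 and 34.3 CPM in old tumours, a difference of -0.49. Plekhg3 was at 0.53, Plekhg5 at 0.32 and Plekhg4 at -0.20, each with overlap. Plekhg6 averaged 0.407 to 0.468 CPM across the groups and did not pass the filter.

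Among tensins and focal adhesion genes, 6 of 22 were above 0 and 16 below, with a median of -0.15, so Tns1 lay apart from the direction of most of its list. The other tensins overlapped between the groups, with Tns2 (listed under its older symbol Tenc1) at 26.8 ± 4.74 CPM in NMN and 26.9 ± 3.82 CPM in old tumours, and Tns3 at 174 ± 53.9 and 167 ± 27.2 CPM. Tns4 averaged 0.757 to 0.997 CPM and did not pass the filter. Without overlap, 3 genes were higher and 4 lower. Itgb1, the integrin beta chain common to many matrix receptors, stood at 364 ± 17.8 CPM in NMN and 500 ± 51.5 CPM in old tumours, a difference of -0.45. Dlc1, a GTPase-activating protein that binds tensins, was at 0.63 (35.1 ± 4.55 against 22.6 ± 5.33 CPM), Tln2, a talin, at 0.37 and Parva, a parvin, at 0.31.

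Among phospholipase C beta and Gq genes, 20 of 25 were above 0 and 5 below, with a median of 0.58, the largest of the 4 lists. Without overlap, 6 were higher and 1 lower. Dgkb, a diacylglycerol kinase, was at 0.85 (64.1 ± 6.79 against 35.3 ± 6.67 CPM), and Htr2a, a serotonin receptor, was at 0.84. Of the other phospholipases of the family, Plcb1 was at 0.80 with overlap (182, 92.7 and 88.7 CPM in NMN, 91.3, 55.9 and 55.0 CPM in old), Plcb2 at -0.14 and Plcb3 at -0.27. In parabiosis minus young, where Plcb4 differed by 0.16, 22 of the 25 list genes were above 0, with a median of 0.69.

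Among tetraspanins, 12 of 23 were above 0 and 11 below, with a median of 0.04. Without overlap, 3 were higher and 2 lower. The 2 lower ones were Cd151, a partner of laminin-binding integrins, at -0.53 (30.4 ± 1.62 against 44.5 ± 4.58 CPM) and Cd63, a late endosome protein, at -0.41. Tspan7, a close relative of Tspan6 that is also X-linked, was at 0.65 (243 ± 93.3 against 149 ± 20.4 CPM), and Tspan33 at 1.02, so both differed from Tspan6 in direction.

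**Figure D5:**
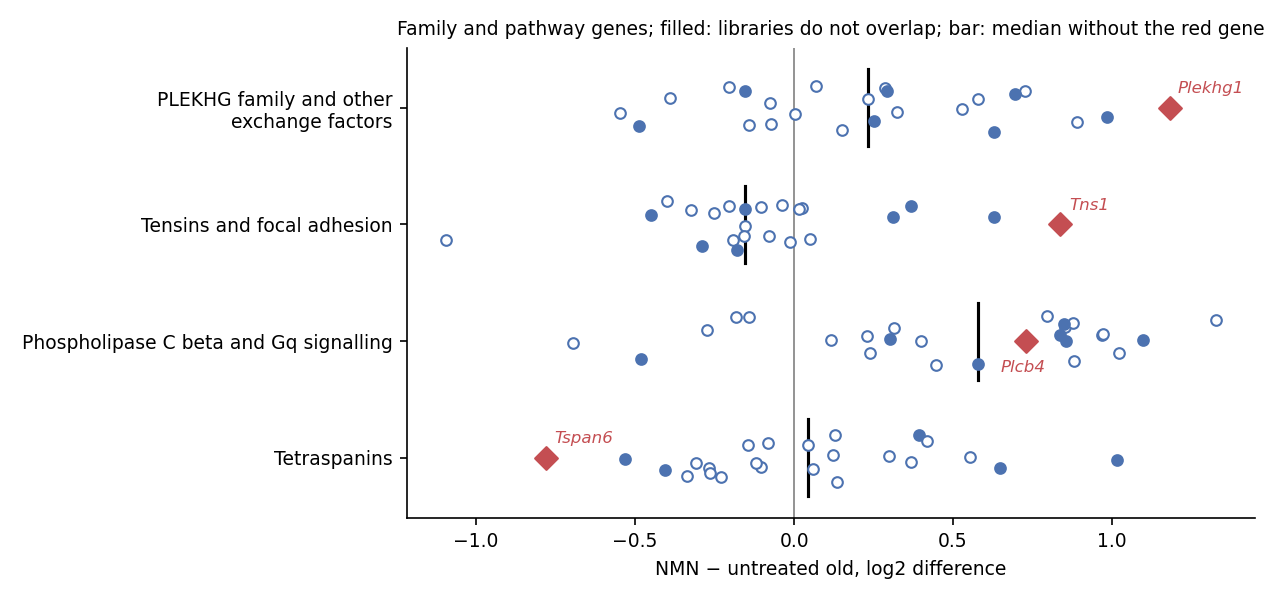
NMN minus untreated old log2 difference of each gene kept in 4 lists, with filled circles where the libraries of both groups do not overlap and a bar at the median without the red gene. The Gq list has a median of 0.58 and the focal adhesion list -0.15, and Tspan6 at -0.78 is the lowest of its list. The red genes were chosen on this difference, so their places describe the choice.

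Markers of normal brain cells differed in level between the tumours. Whether this RNA came from normal tissue or from tumour cells, and its part in the differences above, was not tested. The summed level of 16 neuronal markers was 181 to 1192 CPM in young, 874 to 1776 in old, 1915 to 4881 in NMN and 1369 to 3757 in parabiosis libraries, and none of the markers was at 0 in all libraries. By mean, this sum rose from young (547 CPM) to old (1241), parabiosis (2243) and NMN tumours (2905). Plcb4 had the same order of means, and Plekhg1, Tns1 and Tspan6 did not. The Plcb4 means in young, old and parabiosis tumours were close, at 24.7, 25.4 and 27.4 CPM, and their libraries overlapped. In these bulk samples, fewer cells of a type and less RNA per cell cannot be told apart. For NMN minus old, 15 of 16 neuronal markers, 8 of 8 thalamic markers and 10 of 10 myelin markers were above 0, with medians of 1.05, 1.00 and 0.71. The thalamic sum was 228 to 247 CPM in NMN libraries and 131 to 142 CPM in old ones, and the myelin sum 984 to 1853 against 603 to 795 CPM. The highest genes of the thalamic list averaged 99.6 in NMN against 54.6 CPM in old tumours (Rora) and 45.3 against 41.5 CPM (Tcf7l2).

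With a brain tissue score (the mean of the neuronal and myelin list scores) as a covariate, Plcb4 in NMN minus old was 0.54 in place of 0.73, and in NMN minus young 0.34 in place of 0.79. For the other genes, NMN minus old with this covariate was 1.12 for Plekhg1, 0.75 for Tns1 and -0.81 for Tspan6, against 1.18, 0.84 and -0.78 without it. The score was 0.46 to 1.09 in NMN, -0.29 to 0.39 in old and -1.90 to 0.05 in young libraries. NMN did not overlap with old or young, so values with the covariate rest on extrapolation. Astrocyte markers summed to 4437 to 6334 CPM in NMN and 3855 to 4484 CPM in old libraries, with 8 genes above 0 and 2 below. The highest astrocyte genes over all libraries differed in direction. Gfap had 998 to 1268 CPM in NMN against 1367 to 1732 CPM in old, and Slc1a2 had 1104 to 2981 against 721 to 1175 CPM. Endothelial markers summed to 129 to 155 against 120 to 212 CPM, and microglial markers to 194 to 217 against 148 to 265 CPM. Mural markers summed to 251 to 322 against 227 to 329 CPM, and Cspg4, the highest of them, averaged 132 against 133 CPM. Fibroblast markers summed to 202 to 279 CPM in NMN and to 850, 400 and 265 CPM in old replicates 1, 2 and 3. Pdgfra made up most of the NMN sum, with a mean of 193 CPM in NMN and 291 CPM in old tumours. Col1a2 had 195, 32.5 and 16.9 CPM in the same old replicates. Which cells these sums came from was not tested. The 10 proliferation genes were all below 0 in NMN minus old, with a median of -0.43 and sums of 852 to 1843 against 1695 to 1957 CPM.

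The 4 genes followed one another mainly through the NMN group. Over 12 libraries Pearson's r of log2(CPM + 1) was 0.85 between Tns1 and Plcb4, 0.70 between Plekhg1 and Plcb4 and 0.66 between Plekhg1 and Tns1. Tspan6 gave -0.66 with Plekhg1, -0.77 with Tns1 and -0.81 with Plcb4. Without the NMN libraries, the 6 values over 9 libraries ran from -0.21 to 0.45. With group means taken out, Tns1 and Tspan6 gave 0.59, the opposite sign to the value over all libraries. Tspan6 varied mostly within the old group (SD 20.8 CPM, against 1.45 to 2.57 in the others), so this value rests mainly on the old libraries. These correlations are descriptions, since the genes were chosen for a shared group difference and the points share libraries.

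Genes with the most similar pattern over the 12 libraries were listed for each of the 4 by the same r. For Plekhg1 they were Zfp609, Msi2, Znrf3, Acsf2 and Nf1, at 0.82 to 0.85, and Shfm1 ran most against it at -0.88. For Tns1 they were Pcdha2, Ccdc176, Pdzd7, Csdc2 and Plekhd1, at 0.88 to 0.94, and Ndufv2 ran most against it at -0.94. For Plcb4 they were Man2c1, Hhatl, Map2k7, Hexdc and Dennd6b, at 0.90 to 0.92, and Psma5 ran most against it at -0.95. For Tspan6 they were G6pdx, Tnfrsf1a, Pvr, Msn and Spcs1, at 0.91 to 0.95, and Cdc14b ran most against it at -0.93. G6pdx and Msn are X-linked like Tspan6.

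With group means taken out, other genes came first. Prdx6 followed Plekhg1 at 0.94, Mfsd8 followed Tns1 at 0.95, Zfp810 followed Plcb4 at 0.96 and the X-linked Il13ra1 followed Tspan6 at 0.97. Each was picked as the highest value among the named genes kept, so these are descriptions. Zfp810 had 14.3, 12.1 and 26.3 CPM in the young libraries, with replicate 3 the highest, as for Plcb4. Il13ra1 had 49.3, 16.8 and 8.77 CPM in the old libraries, and its highest and lowest old libraries were also the highest and lowest for Tspan6. Both genes varied mostly within the old group, so their r rests mainly on those libraries.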

How the data were processed

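Tumour RNA from 12 mice was depleted of ribosomal RNA and sequenced as stranded paired-end libraries, per the labels' protocols. The deposited values were CPM with TMM scaling by the authors, in a single table. RSEM 1.2.15, Bowtie2 2.1.0, edgeR and FastQC are the tools, and mm10 and GRCm38 the builds, per the submitters' processing notes. All values (100%) were whole multiples of 1 read at a tolerance of 0.01, which gave the recovered depths of 18566096 to 26779406 reads. Intervals and limits cover counting error or the spread between these libraries only.

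Genes with CPM of at least 1 in at least 3 libraries were kept (15232), and limma 3.58.1 (R 4.3.3) was fitted to log2(CPM + 1), with a variance trend and 1 mean per group over 12 libraries. This scale understates changes of low genes. p-values were two-sided and adjusted by Benjamini-Hochberg over all genes kept. Whole reads recovered from the CPM values were tested with edgeR 4.0.16 and DESeq2 1.42.0 as alternatives. Groups came from the labels. The labels repeat replicate numbers 1 to 3 in each group without saying what they share. Deviations from group means correlated above 0.1 in all 3 same-numbered pairs for old and NMN (0.213 to 0.371) and for young and parabiosis (0.388 to 0.561), and in 1 of 3 pairs for each of the other group pairs. Any pairing is thus read from the data. Other alternatives were pseudocounts, filters, scalings, a brain tissue covariate, a replicate block and left-out libraries. The functions were tested on simulated data.

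The 4 genes, the gene lists and the alternatives were chosen with earlier results of these data known. Named genes were the 4 genes, their nearest relatives, up to 4 further genes per list without overlap between NMN and old (largest difference), neighbours in the ranking, the most similar genes by Pearson's r, and the top 2 of each marker list. A row was found for 200 of 201 list entries, with 2 matched through an older symbol. Gene models without a name and 27 rows whose symbol had become a date were left unnamed. Some genes that these rules named are not reported here.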

Additional observations from a re-analysis of the deposited data

How the results depend on the processing

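Over all alternatives, 483 of 504 recomputed values for the 4 genes stayed within the spread between replicates or, where tested, kept sign and side of the threshold; the cause of the rest was not tested. The sign turned in 15 values, in differences reported at 0.16 or less in size: Tns1 in parabiosis minus young (5), old minus young (2) and parabiosis minus old (2), Plcb4 in old minus young (4) and parabiosis minus young (1), and Tspan6 in old minus young (1). No sign turned in a comparison with NMN. For NMN minus old (log2), leaving out 1 library at a time gave 1.08 to 1.24 for Plekhg1, 0.70 to 0.94 for Tns1, 0.70 to 0.76 for Plcb4 and -0.95 to -0.61 for Tspan6, and without the 3 libraries low in Xist Tns1 was 1.11 and Tspan6 -0.45. With the same libraries left out, old minus young was -0.52 for Plekhg1, -0.11 for Tns1, 0.29 for Plcb4 and -0.39 for Tspan6, parabiosis minus old was 0.20 for Tns1 and 0.63 for Tspan6, and NMN minus young was 0.96 for Plcb4. With the brain tissue score as a covariate, Plcb4 was 0.54 in NMN minus old, -0.20 in old minus young, 0.34 in NMN minus young and -0.20 in parabiosis minus young, and Tns1 was 0.73 in NMN minus young and -0.13 in parabiosis minus young. Tns1 in parabiosis minus young was also -0.045 with quantile normalization and -0.0041 with edgeR, and -0.059 to 0.092 leaving out 1 library at a time, against 0.03 as reported. For Plcb4, leaving out 1 library at a time gave -0.060 to 0.23 in old minus young and 0.67 to 0.96 in NMN minus young, both extremes on the high side without young replicate 3. DESeq2 called 46 genes in NMN against old and 977 in parabiosis against young, where limma called 0; the limma count in the latter comparison was 2 with the brain covariate, 327 without the 3 libraries low in Xist (added after seeing the data) and 0 to 701 leaving out 1 library at a time, with 701 without young replicate 3 and 1 without parabiosis replicate 2. A covariate for Y-linked genes, also added after seeing the data, gave 1.26, 0.84, 0.73 and -0.80 for Plekhg1, Tns1, Plcb4 and Tspan6 in NMN minus old. Of 18 same-numbered pairs of libraries, 10 had deviations correlated over 0.1 (-0.503 to 0.597), and 8 of 12 libraries correlated best with one of their own number. With 1 replicate block over all 12 libraries, limma called 0 genes in both comparisons and NMN minus old was 1.18, 0.84, 0.73 and -0.78. With the replicate block on the 2 compared groups alone, added after seeing the data, it called 474 genes in NMN against old and 1363 in parabiosis against young, and no call on the 4 genes changed in the latter. Each of the 4 genes had at least 339 reads per library, and the number of libraries, 3 per group, limits the precision.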
